A study of Mus musculus with 66 samples.

Results

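Gene expression in the hippocampus of Rorb h5/h5 mice was compared with that of DBA/1J mice, with 3 libraries per genotype, 6 of the 66 libraries of the series. The libraries were chosen by their labels alone (tissue hippocampus, genotype H5 or DBA-WT), and all genes were examined. Rorb h5/h5 mice carry a spontaneous mutation on the DBA/1J background, a T-to-C change within the start codon of the Rorb1 transcript, in the homozygous state. Strain-matched wild-type DBA/1J mice served as controls, so both groups share the DBA/1J background. All 6 animals were labelled as 7 weeks old, with replicates 1 and 2 of DBA/1J and replicates 1 and 3 of Rorb h5/h5 labelled female and the others male. The study notes that animals of this comparison differed slightly, by about 3 days, in age at collection. The labels do not resolve this by animal, so whether age differed between the genotypes is not known and its part was not tested. One side of each brain was dissected into cortex, hippocampus and cerebellum, the tissue was frozen and pulverized, and poly(A) RNA was sequenced. Each library is 1 animal, and the 3 mutants are of 1 line, so an effect of the allele and of any other variant fixed in that line cannot be told apart.

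Rorb encodes the orphan nuclear receptor RORβ, which binds DNA as a monomer at an AGGTCA core preceded by A and T bases. It is read from alternative first exons, giving the Rorb1 and Rorb2 transcripts, and is best known for layer 4 of the neocortex, the retina and inhibitory interneurons of the spinal cord. The hippocampus holds the granule neurons of the dentate gyrus and the pyramidal neurons of fields CA1, CA2 and CA3, together with interneurons, astrocytes, oligodendrocytes, microglia and blood vessels. Astrocytes take up glutamate, convert it to glutamine, store glycogen and contact vessels with their endfeet. The comparison asks which of these programmes differ in the mutant hippocampus.

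The mutated codon is shown because it sets what a change in Rorb counts can mean. In the reference transcripts of GENCODE vM39 the start codons, in capitals within 30 bases of mRNA sense, read as follows, with the next ATG of the same reading frame below.
Rorb1 start codon: agcggccacatcATGcgagcacaaattgaa
Rorb2 start codon: tgctccgtcagaATGtgtgagaaccagccc
Next in-frame ATG: cttgccctaggaATGtcaagagatgctgta
The first codon of Rorb1 is the one altered in h5, and the wild-type reference sequence is printed. The next in-frame ATG lies at codon 75 of 459 in Rorb1 and at codon 86 of 470 in Rorb2. Each transcript has 10 exons, of which 9 are common to both, so a gene-level count cannot tell them apart. The mutation changes a codon and deletes no exon, and the Rorb count therefore does not test the genotype labels.

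Total counts ran from 33801889 to 48353482 per library. Genes were counted as RSEM expected counts, levels are given as CPM, normalised counts scaled to library size, and 16961 genes passed a low-count filter. Log2 CPM correlated between libraries with a Pearson's r of 0.98 to 0.99 across genes, and 0 of 15 pairs were identical. Rorb h5/h5 replicate 2 lay farthest from the rest, with the highest score on the first principal component, which held 38.6% of the variance. Rorb h5/h5 replicate 3 is labelled female but had 69.4 CPM of the Y-linked gene Ddx3y and 0.28 CPM of Xist. By these genes each group held both sexes, with 1 male among the DBA/1J and 2 males among the Rorb h5/h5 animals. Where leaving out 1 of these libraries changed the edgeR call of a gene described below, the value without it is given. The tissue label was checked by level per length. The CA1 marker Fibcd1 was at 39.3 to 49.2 TPM in hippocampus against at most 3.89 in cortex and 0.32 in cerebellum of the same animals. The dentate marker Dsp was at 8.90 to 18.8 TPM against at most 0.39 and 1.63.

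Few genes differed between the genotypes. With edgeR's quasi-likelihood test and Benjamini-Hochberg adjustment, 2 of 16961 genes (0.0118%) were called. Myoc rose (1 gene, 0.0059%) and Grin2c fell (1 gene, 0.0059%) in Rorb h5/h5 hippocampus. At an unadjusted p under 0.05, 715 genes remained (4.22%), 367 higher (2.16%) and 348 lower (2.05%). DESeq2, the tool the study used, called 44 of the 13894 genes it adjusted (0.317%), 18 higher (0.13%) and 26 lower (0.187%), among them both edgeR calls. The 44 differed by a median of 0.48 on the log2 scale regardless of sign, and only 8 differed by more than 2-fold. In each of the 44 every Rorb h5/h5 library lay on one side of every DBA/1J library. This was so for 830 genes upwards (4.89%) and 829 downwards (4.89%) of all genes tested. The median log2 fold change of all genes was 0.0035. With 3 libraries per group an exact permutation test cannot go below p = 0.1, and the labels do not say whether animals were littermates. In bulk tissue, fewer cells of a type and less RNA per cell cannot be told apart, which holds for every gene below.

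**Figure D1:**
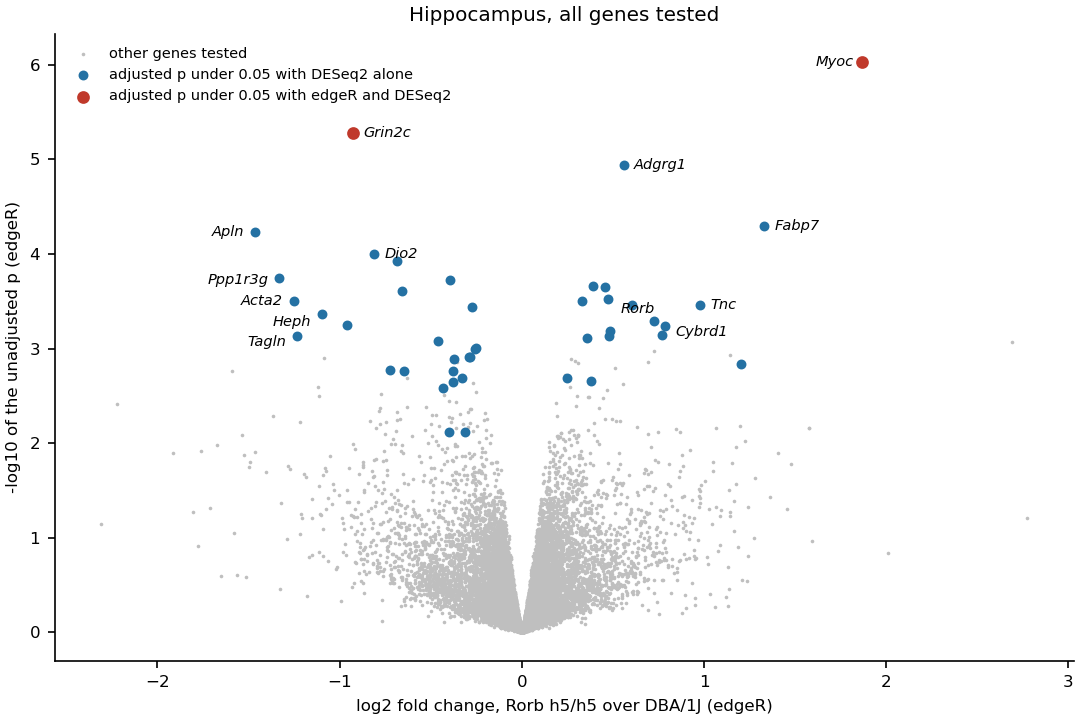
Log2 fold change (x axis, Rorb h5/h5 over DBA/1J) against -log10 of the unadjusted edgeR p (y axis) for the 16961 genes tested in hippocampus, with the 44 genes called by DESeq2 in colour and the 2 called by edgeR as larger points. Myoc at 1.87 and Grin2c at -0.93 lie highest, and most of the other coloured points lie within 1 log2 unit of 0.

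Myoc encodes myocilin, a secreted olfactomedin-domain glycoprotein best known from the outflow tissue of the eye. It was at 1.53, 1.37 and 1.23 CPM in the DBA/1J libraries and at 4.96, 5.23 and 4.85 CPM in the Rorb h5/h5 libraries. All mutants lay above all controls, with a gap far wider than the spread within either group. The log2 fold change was 1.87 (SE 0.15, adjusted p = 0.0159 with edgeR), a 3.65-fold difference, the largest in size among the 44 genes. Myoc (ENSMUSG00000026697) lies on chromosome 1 at 162639150-162649694 in GRCm38. Its call was lost without Rorb h5/h5 replicate 1 (adjusted p = 0.0823 with edgeR), without Rorb h5/h5 replicate 3 (0.0683), without DBA/1J replicate 2 (0.133) and without DBA/1J replicate 3 (0.188). Over the 6 fits that each left out 1 library, the log2 fold change ran from 1.79 to 1.95.

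Grin2c encodes GluN2C, a subunit of NMDA-type glutamate receptors known from cerebellar granule neurons and from astrocytes. It was at 32.7, 30.1 and 28.8 CPM in DBA/1J and at 17.7, 14.5 and 15.9 CPM in Rorb h5/h5 hippocampus. Every mutant library was below every control, and the level fell 1.90-fold (log2 -0.93, SE 0.09, adjusted p = 0.0450 with edgeR). Grin2c (ENSMUSG00000020734) lies on chromosome 11, with its transcription start within the promoter window printed below. The call held without Rorb h5/h5 replicate 2 (adjusted p = 0.0294 with edgeR). It was lost when any other library was left out, with the adjusted p up to 0.270 and the log2 fold change between -1.003 and -0.88. It was also lost with a filter of 1 CPM in 3 libraries (adjusted p = 0.0577 with edgeR). The animals' identifiers begin with a series number that DBA/1J replicate 3 shares with Rorb h5/h5 replicate 1, and DBA/1J replicate 2 with Rorb h5/h5 replicate 3. With this series as a block Grin2c was at -0.81 and was not called (adjusted p = 0.128 with edgeR), while Myoc was (0.0408).

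**Figure D2:**
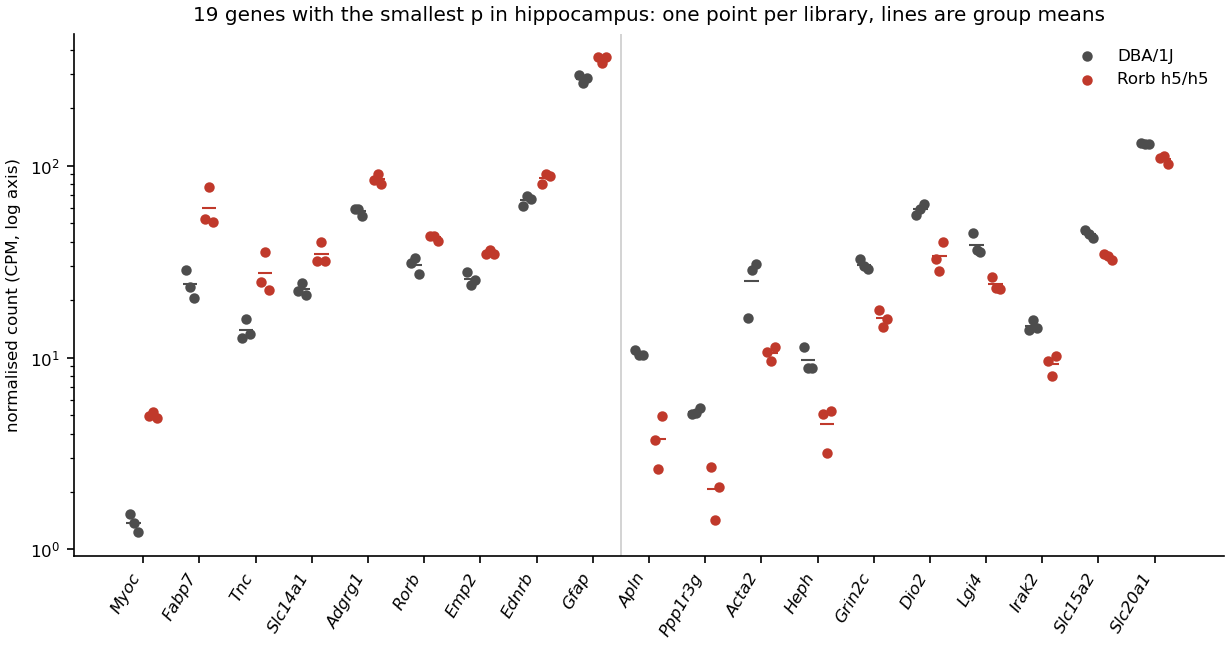
Normalised counts (CPM, log axis) of the 19 genes with the smallest edgeR p, one point per hippocampus library in grey for DBA/1J and red for Rorb h5/h5, with lines at the group means, genes higher in the mutant at left and lower ones at right. The groups do not overlap in any of the 19, from Myoc at 1.23 to 1.53 against 4.85 to 5.23 CPM to Slc20a1 at 130.0 to 131.6 against 101.8 to 112.2 CPM. The genes were picked by p in these same libraries, which favours such separation. Of all genes tested, 4.89% lay apart upwards and 4.89% downwards.

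Promoters are shown as examples because the altered receptor binds DNA. That of Adgrg1, the third gene by p, is not printed. Those shown are of both called genes and of Fabp7, the fourth gene by p. Each runs from 250 bases before to 50 bases after the annotated start, from RefSeq with build GRCm38.p6, 5′ to 3′ on the gene's strand, and capitals mark the letters AGGTCA on either strand.
Grin2c promoter, chr11:115267194-115267493, minus strand: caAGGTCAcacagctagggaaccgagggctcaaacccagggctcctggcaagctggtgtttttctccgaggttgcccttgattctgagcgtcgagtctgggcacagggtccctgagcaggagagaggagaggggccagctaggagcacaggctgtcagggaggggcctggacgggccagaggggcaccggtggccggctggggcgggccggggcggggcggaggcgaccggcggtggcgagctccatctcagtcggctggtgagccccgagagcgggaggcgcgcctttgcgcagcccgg
Fabp7 promoter, chr10:57784673-57784972, plus strand: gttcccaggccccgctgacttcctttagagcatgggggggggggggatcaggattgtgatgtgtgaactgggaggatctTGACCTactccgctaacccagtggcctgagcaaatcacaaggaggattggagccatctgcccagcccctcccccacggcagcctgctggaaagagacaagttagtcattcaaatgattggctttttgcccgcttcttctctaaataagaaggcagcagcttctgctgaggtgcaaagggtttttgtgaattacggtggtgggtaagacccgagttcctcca
Myoc promoter, chr1:162638900-162639199, plus strand: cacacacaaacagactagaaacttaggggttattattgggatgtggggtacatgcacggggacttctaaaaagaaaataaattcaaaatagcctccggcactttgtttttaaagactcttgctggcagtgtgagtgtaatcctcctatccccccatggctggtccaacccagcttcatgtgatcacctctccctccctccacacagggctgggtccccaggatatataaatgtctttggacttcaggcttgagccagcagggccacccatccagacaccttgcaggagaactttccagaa
AGGTCA was found at 248 bases before the start of Grin2c and, on the opposite strand, from 171 bases before the start of Fabp7, and its letters are not in the Myoc window. Of the 44 genes called by DESeq2, 30 matched a promoter by symbol, and 7 of these 30 held AGGTCA on either strand (23.3%), against 14.9% of the 11969 tested genes with a promoter and 16.3% of all 32851 promoters. The longer TAGGTCA, which contains it, was in the promoters of Fabp7 and Glul, 2 of 30 (6.67%) against 2.17% of tested genes. With the letters AAN directly before TAGGTCA, the form nearest to the described binding site, it was in 0 of the 30 and in 0.167% of tested genes. A match is a description of letters and was not tested as a site.

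Rorb itself was higher in the mutant. It was at 31.1, 33.1 and 27.3 CPM in DBA/1J and at 43.2, 43.2 and 40.4 CPM in Rorb h5/h5 hippocampus. The groups did not overlap, and the means were 30.5 ± 2.91 and 42.3 ± 1.62 CPM (SD, n = 3 each). The log2 fold change was 0.47 (SE 0.08, 1.39-fold), with an adjusted p of 0.346 with edgeR and 2.96e-04 with DESeq2. A two-sided exact permutation test gave p = 0.1, the smallest this design allows. On the TPM scale the levels were 6.70, 7.41 and 6.18 in DBA/1J and 9.70, 9.55 and 9.21 in Rorb h5/h5 libraries. Rorb (ENSMUSG00000036192) lies on chromosome 19 at 18930609-19111196 in GRCm38.

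Other receptors that bind the same core include the activator RORα and the repressors REV-ERBα and REV-ERBβ. Nr1d1, which encodes REV-ERBα, was at 101.5, 98.5 and 93.9 CPM in DBA/1J and at 80.1, 88.1 and 75.9 CPM in Rorb h5/h5 libraries. The mutants lay below the controls (log2 -0.27, SE 0.06), with an adjusted p of 0.706 with edgeR and 0.0893 with DESeq2, both above the threshold. Rora stood at 72.6 ± 5.63 and 69.3 ± 9.32 CPM and Nr1d2 at 140.6 ± 10.2 and 129.6 ± 12.1 CPM in DBA/1J and Rorb h5/h5 (SD, n = 3 each), with overlapping groups. The ROR and REV-ERB list as a whole had a median log2 fold change of -0.0675 over its 5 genes.

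Genes next to Rorb were examined likewise. Within 2 Mb of Rorb on chromosome 19 lie 20 annotated genes, of which 12 besides Rorb were tested. edgeR called 0 of these 12, against 0.0118% of all genes tested. Prune2 alone had an unadjusted p under 0.05 (0.14, SE 0.06), against 4.22% of all genes. Their log2 fold changes ran from -0.37 to 0.14 with a median of 0.014. The 5 tested within 0.5 Mb were Ostf1 (0.09), Nmrk1 (0.083), Carnmt1 (0.10), D030056L22Rik (-0.10) and Trpm6 (0.01), all with overlapping groups.

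Several leading genes are known from astrocytes, and they lay in both directions. Fabp7, the brain lipid-binding protein of radial glia and astrocytes, was at 28.6, 23.3 and 20.4 CPM in DBA/1J and at 52.5, 77.7 and 51.1 CPM in Rorb h5/h5 libraries. Each mutant was above each control, with replicate 2 the highest (log2 1.33, SE 0.18, adjusted p = 0.197 with edgeR and 8.51e-05 with DESeq2). Without Rorb h5/h5 replicate 2 edgeR called it (log2 1.11, adjusted p = 0.0294), and with the series of identifiers as a block likewise (0.00425). Gfap, the intermediate filament of astrocytes, was at 296.3, 270.4 and 284.9 CPM against 366.0, 340.7 and 366.0 CPM, higher in each mutant by 1.26-fold. Slc1a3, the glutamate transporter GLAST, was at 581.7, 563.9 and 513.2 CPM in DBA/1J and at 628.4, 667.1 and 641.6 CPM in Rorb h5/h5 libraries, without overlap, but missed the threshold of DESeq2 as well (0.0972).

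Lower levels were found for 4 genes that are not in the astrocyte list. Glul encodes glutamine synthetase, which turns glutamate into glutamine. It was at 687.3, 674.6 and 688.0 CPM in DBA/1J and at 504.4, 428.5 and 556.6 CPM in Rorb h5/h5 libraries, with a wider spread among the mutants and no overlap (log2 -0.46, SE 0.09, adjusted p = 0.497 with edgeR and 3.58e-05 with DESeq2). Dio2, the deiodinase that makes active thyroid hormone in astrocytes and tanycytes, was at 55.2, 59.5 and 62.9 CPM against 32.7, 28.1 and 40.2 CPM. Its level was 1.76-fold lower (log2 -0.81, SE 0.12, adjusted p = 0.286 with edgeR and 6.13e-09 with DESeq2), and the groups were apart. Ppp1r3g, a subunit that brings protein phosphatase 1 to glycogen, was at 5.10, 5.12 and 5.44 CPM against 2.69, 1.42 and 2.11 CPM. Ntsr2, a neurotensin receptor found on astrocytes, was at 62.3, 49.1 and 51.4 CPM against 42.7, 41.6 and 41.1 CPM, lower in each mutant. It is also a marker of CA2 neurons and stands in that list.

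The list of general astrocyte markers was mixed. Of its 12 genes 11 were tested, and edgeR called none. Fabp7, Gfap and Slc1a3 had an unadjusted p under 0.05 (3 higher against 2.16% of all genes tested, 0 lower against 2.05%), and these 3 were the ones above all controls in every mutant (4.89% of all genes). The list median was 0.04, and the summed level was 5886 to 6616 CPM in DBA/1J and 5904 to 6252 CPM in Rorb h5/h5 libraries. Aqp4, the water channel of endfeet, stood at 172.5 ± 11.9 and 177.4 ± 5.33 CPM, Gja1, a gap junction protein, at 263.1 ± 12.3 and 272.7 ± 13.8 CPM, and Slc1a2, the transporter GLT-1, at 4346 ± 276.0 and 4036 ± 206.1 CPM (SD, n = 3 each). These 3 overlapped between genotypes.

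Among receptors and membrane proteins, Adgrg1, the adhesion receptor GPR56, was at 59.1, 59.6 and 54.8 CPM in DBA/1J and at 84.6, 91.0 and 79.9 CPM in Rorb h5/h5 libraries. All mutants lay above all controls (log2 0.56, SE 0.06, adjusted p = 0.0650 with edgeR and 1.41e-09 with DESeq2). Without Rorb h5/h5 replicate 2 it passed edgeR too, at 0.51 and an adjusted p of 0.0294. Ednrb, the endothelin B receptor, was at 61.5, 69.3 and 66.8 CPM against 80.4, 90.6 and 87.9 CPM, and Emp2, a tetraspan membrane protein, was 1.37-fold higher. Ptprz1, a receptor phosphatase of glia, was 1.19-fold higher and Lrig1, which restrains EGF receptor signalling, 1.28-fold higher. The 3 highest values of each of these genes were those of the mutants.

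Secreted proteins and matrix included some of the widest differences. Apln, which encodes the peptide apelin, was at 10.9, 10.3 and 10.3 CPM in DBA/1J and at 3.74, 2.63 and 4.97 CPM in Rorb h5/h5 libraries. The controls were nearly equal and the mutants lay 2.78-fold lower (log2 -1.47, SE 0.20, adjusted p = 0.197 with edgeR and 1.32e-09 with DESeq2). Apln too was called by edgeR without Rorb h5/h5 replicate 2 (log2 -1.26, adjusted p = 0.0294). Tnc, the matrix protein tenascin C, was at 12.7, 15.8 and 13.3 CPM against 24.6, 35.4 and 22.4 CPM, with replicate 2 of the mutants again highest. Mfge8, a bridge between dying cells and phagocytes, was 1.40-fold higher, and Lgi4, a secreted ligand known from myelinating nerve, was 1.61-fold lower. Ptgds, which makes prostaglandin D2 and is abundant in meninges and oligodendrocytes, was at 315.6, 338.6 and 318.4 CPM against 202.4, 292.7 and 241.3 CPM.

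Further genes called by DESeq2 encode transporters and enzymes. Higher in each mutant were Slc14a1, a urea transporter (1.52-fold), Cybrd1, a ferric reductase (1.72-fold), and Hsd11b1, which regenerates active glucocorticoid (1.39-fold). Lower in each mutant were Heph, the ferroxidase hephaestin (2.15-fold), Slc15a2, a peptide transporter (1.31-fold), Slc20a1, a phosphate transporter (1.21-fold), Acsl3, an acyl-CoA synthetase (1.20-fold), and Gpld1, a phospholipase that releases GPI-anchored proteins (1.302-fold). Irak2, an interleukin 1 receptor-associated kinase, was 1.58-fold lower and Scara3, a scavenger receptor, 1.57-fold lower. Each of these passed DESeq2 and missed edgeR, with Slc20a1 at an adjusted p of 0.00815 and Acsl3 at 0.0262 with DESeq2. The unnamed gene ENSMUSG00000107169 was at 1.42 to 2.49 CPM in DBA/1J and 3.30 to 5.80 CPM in Rorb h5/h5 libraries.

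In the list of pericyte and smooth muscle genes, 3 contractile genes passed DESeq2 and missed edgeR. Acta2, smooth muscle actin, was at 16.1, 28.5 and 30.8 CPM in DBA/1J and at 10.7, 9.58 and 11.4 CPM in Rorb h5/h5 libraries. Myh11, smooth muscle myosin, was at 20.9, 33.2 and 36.3 CPM against 15.1, 16.4 and 15.04 CPM, and Tagln, the actin-binding protein transgelin, at 7.36, 13.1 and 14.4 CPM against 4.35, 4.57 and 5.86 CPM. In all 3 every mutant was below every control, and DBA/1J replicate 1 was the lowest control. Their log2 fold changes were -1.25 (SE 0.22), -0.96 (SE 0.18) and -1.24 (SE 0.24), with adjusted p of 0.346, 0.446 and 0.485 with edgeR and 5.16e-08, 4.45e-06 and 3.58e-05 with DESeq2. The pericyte markers of the same list, Pdgfrb, Rgs5, Kcnj8, Abcc9 and Vtn, overlapped between genotypes, with log2 fold changes of -0.05 to -0.20. The list of 8 pericyte and smooth muscle genes had a median of -0.20, with 3 lower and 0 higher at an unadjusted p under 0.05, against 2.05% and 2.16% of all genes tested. Its summed level was 315.2 to 323.4 CPM in DBA/1J and 253.7 to 289.2 CPM in Rorb h5/h5 libraries. In the list of 12 endothelial genes, Mfsd2a (-0.27), a lipid transporter of the blood-brain barrier, and Tek (-0.23), an angiopoietin receptor, had an unadjusted p under 0.05, and the median was -0.14. The endothelial sum was 392.9 to 433.0 CPM in DBA/1J and 370.9 to 382.1 CPM in Rorb h5/h5 libraries, and the sum of 12 meningeal genes 654.3 to 799.5 CPM against 573.5 to 639.4 CPM. In each of these lists 10 of the 12 genes had a log2 fold change below 0, as had 8251 of all 16961 genes tested. The endothelial sums stayed apart without any 1 gene other than Slc2a1, without which they just overlapped (307.7 to 347.2 against 291.2 to 308.5 CPM). The meningeal sums overlapped without Ptgds (315.7 to 481.1 against 280.8 to 437.0 CPM) or without Igf2. The pericyte and smooth muscle sum stayed apart without any 1 of its 8 genes. Acta2, Myh11 and Tagln were lower together, so leaving out 1 gene at a time does not show a difference in the rest of that list. The part of endothelial or meningeal RNA in the contractile gene difference was not tested. From the matrix list, Mgp was at 8.21, 12.1 and 12.8 CPM against 6.48, 5.86 and 8.195 CPM, and Eln was at 12.9, 17.8 and 15.4 CPM against 10.1, 12.01 and 12.3 CPM, and neither passed edgeR or DESeq2. Actin genes include close paralogs, so the Acta2 count is uncertain in part. Without DBA/1J replicate 1, the control lowest in these genes, edgeR called Acta2 and Myh11 (adjusted p = 0.0210 for both), while the list median was -0.062. With the series of identifiers as a block edgeR called Acta2 (log2 -1.43, adjusted p = 0.0107) and Myh11 (log2 -1.20, adjusted p = 0.0204) and not Tagln.

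**Figure D3:**
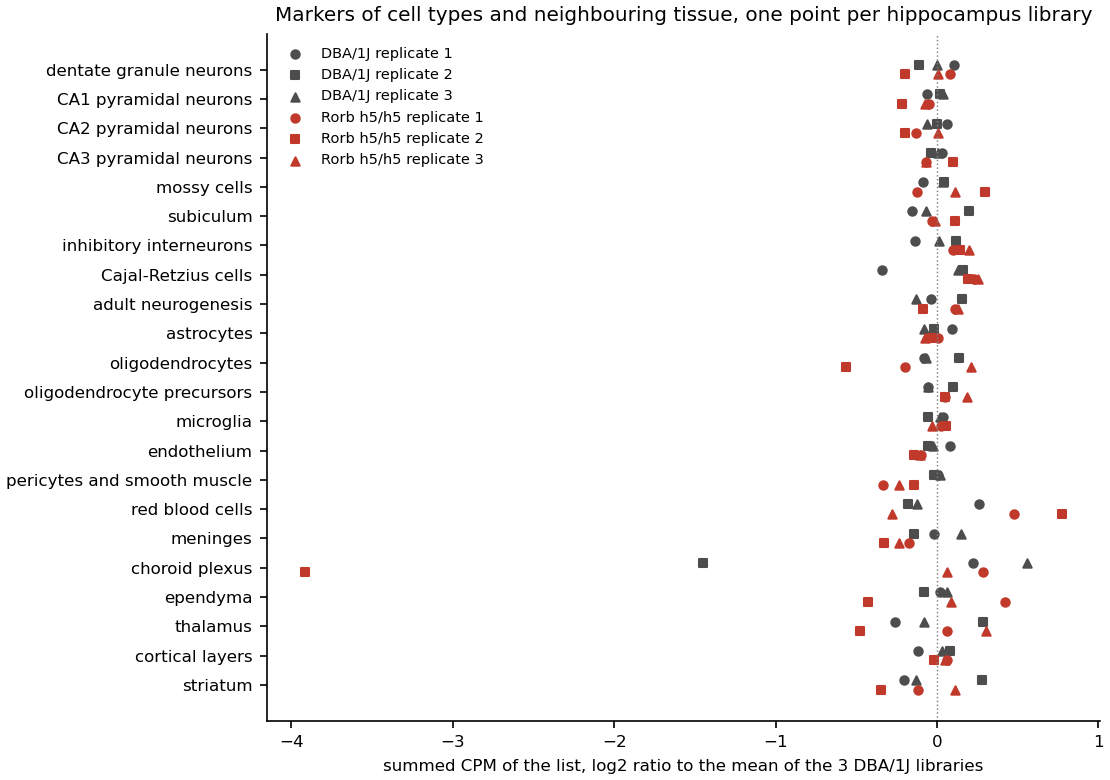
Summed CPM of each marker list in each hippocampus library, as the log2 ratio to the mean of the 3 DBA/1J libraries (x axis), with genotype by colour and replicate by shape. The pericyte and smooth muscle list is lower in all 3 mutants than in any control, as is the endothelium list (370.9 to 382.1 against 392.9 to 433.0 CPM), and the choroid plexus list runs from 164.5 CPM in Rorb h5/h5 replicate 2 to 3652 CPM in DBA/1J replicate 3. The Cajal-Retzius list is higher in all 3 mutants than in any control (30.5 to 31.8 against 21.0 to 29.9 CPM).

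Marker genes of the neuronal fields were examined next. At an unadjusted p under 0.05, 0 of 12 dentate granule neuron genes, 0 of 7 CA1 genes, 1 of 8 CA2 genes (Ntsr2, above) and 0 of 8 CA3 genes stood out, against 4.22% of all genes, with list medians of 0.0069, -0.083, -0.021 and 0.0255, and edgeR called none. Medians were 0.089 for 6 mossy cell genes, 0.16 for 6 subiculum genes and 0.14 for 13 interneuron genes. Dlk1, of the subiculum list, was at 8.18, 20.5 and 11.5 CPM in DBA/1J and at 18.2, 23.1 and 28.6 CPM in Rorb h5/h5 libraries, with overlap. Pvalb, a calcium-binding protein of basket cells, was at 21.3, 18.8 and 20.6 CPM against 16.3, 17.6 and 17.8 CPM, lower in each mutant without passing the adjusted test. The 4 Cajal-Retzius genes tested had a median of -0.083, and the 9 genes of adult neurogenesis 0.15, among them Nes, a filament of neural stem cells, at -0.30 (unadjusted p = 0.0237 across the edgeR fit). Against its median, the Cajal-Retzius sum was higher in the mutants, at 21.0 to 29.9 CPM in DBA/1J and 30.5 to 31.8 CPM in Rorb h5/h5 libraries. These sums overlapped without Trp73, without Ebf3 or without Ndnf. The CA1 gene Wfs1 stood at 126.7, 139.2 and 132.4 CPM in DBA/1J and at 119.4, 46.3 and 120.7 CPM in Rorb h5/h5 libraries, with replicate 2 alone far below.

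For oligodendrocytes the spread between animals was wide. The 12 oligodendrocyte genes had log2 fold changes from -0.33 to -0.0009 (median -0.12, 0 at an unadjusted p under 0.05), and their sum was 4484 to 5214 CPM in DBA/1J and 4122, 3201 and 5476 CPM in Rorb h5/h5 replicates 1 to 3. Medians were 0.0855 for 8 genes of oligodendrocyte precursors, -0.0059 for 12 microglia genes and 0.38 for 5 red blood cell genes, with 0 members at an unadjusted p under 0.05 in each. Of all genes tested, 4.22% had such a p. Sums of the red blood cell list, mostly hemoglobin genes, were highest in Rorb h5/h5 replicates 1 and 2 (239.7 and 294.7 CPM) and lowest in replicate 3 (141.8 CPM), on both sides of the 151.8 to 206.4 CPM of the controls.

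Markers of neighbouring tissue were checked in each library, beside 2.16% of all genes higher and 2.05% lower at an unadjusted p under 0.05. The 11 choroid plexus genes had a median of -0.35 with 0 at an unadjusted p under 0.05. Their sum was 2894, 908.1 and 3652 CPM in DBA/1J and 3024, 164.5 and 2596 CPM in Rorb h5/h5 libraries, so 1 library of each group was poor in choroid plexus RNA. Medians were -0.17 for 12 meningeal genes (1 lower, Ptgds), 0.11 for 6 ependymal genes (1 higher, Ccdc153), -0.15 for 12 thalamic genes (1 lower, Ramp3), 0.0044 for 13 cortical layer genes (2 lower, Cux2 and Cplx3) and -0.25 for 9 striatal genes (none). The part of these differences in the called genes was not tested.

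**Figure D4:**
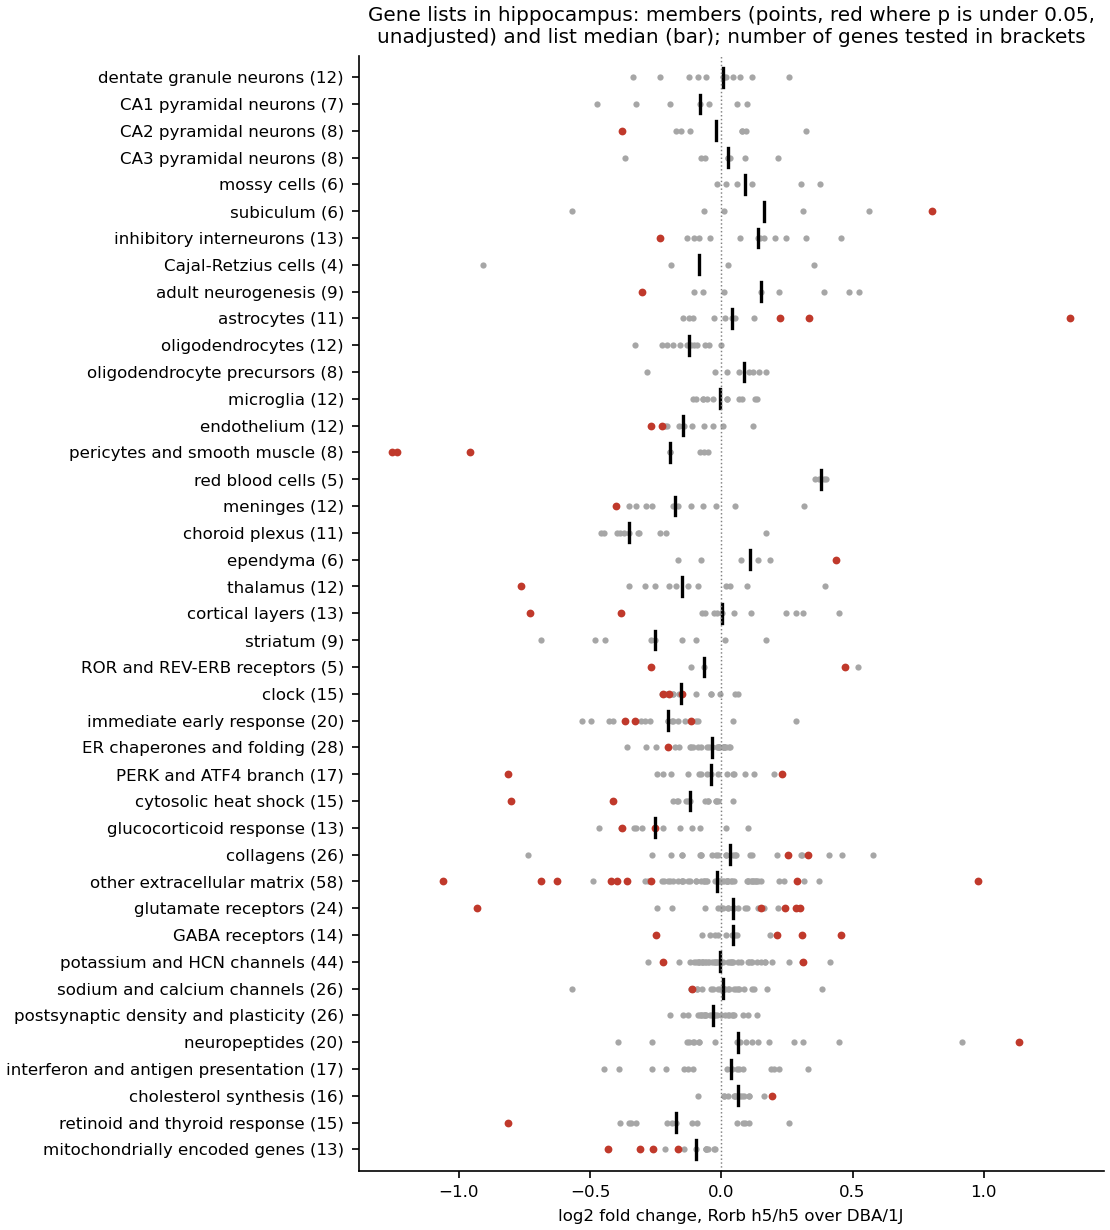
Log2 fold change (x axis) of every tested member of 41 gene lists in hippocampus, in red where the unadjusted edgeR p is under 0.05, with a bar at each list median and the number of genes tested in brackets. Most medians lie within 0.2 of 0, and the members farthest out are Fabp7 at 1.33, Acta2 at -1.25 and Tagln at -1.24.

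Of 24 glutamate receptor genes, Grin2c alone was called. Grin2d, the GluN2D subunit, was at 11.6, 12.7 and 12.1 CPM in DBA/1J and at 14.2, 14.9 and 15.1 CPM in Rorb h5/h5 libraries (log2 0.28, SE 0.08), and with Grid1 (0.15) and Grin3a (0.24) it was among 4 higher members at an unadjusted p under 0.05 (2.16% of all genes), against 1 lower (2.05% of all genes). The obligatory NMDA subunit Grin1 stood at 480.9 ± 14.4 and 460.7 ± 7.97 CPM, Grin2a at 704.9 ± 26.2 and 704.3 ± 75.0 CPM, and Grin2b at 942.1 ± 68.0 and 970.6 ± 105.1 CPM (SD, n = 3 each). These 3 overlapped. The list median was 0.044.

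Of 14 GABA receptor genes, 3 were higher and 1 lower at an unadjusted p under 0.05, with a median of 0.043, where 2.16% of all genes were higher and 2.05% lower. Their sum was 2857 to 2987 CPM in DBA/1J and 2995 to 3084 CPM in Rorb h5/h5 libraries, higher in the mutants without overlap. Gabrg1, a subunit found in astrocytes among other cells, was at 20.8, 28.3 and 22.3 CPM in DBA/1J and at 29.95, 31.6 and 36.2 CPM in Rorb h5/h5 libraries. Gabrb1 (0.21) and Gabrg3 (0.31) were also higher, and Gabrd (-0.25), the subunit of tonic inhibition in granule neurons, was lower. None of the 4 passed edgeR or DESeq2. Of 44 potassium and HCN channel genes 1 was higher (Kcnj16, 0.31) and 1 lower (Kcnj4, -0.22), with a median of -0.0047, and of 26 sodium and calcium channel genes 1 was lower (Cacna2d3, -0.11), with a median of 0.0064, counts close to the shares of all genes. The 26 genes of the postsynaptic density had a median of -0.034 and 0 at an unadjusted p under 0.05. Of 20 neuropeptide genes, Cartpt alone was higher (0.34 to 0.54 CPM in DBA/1J and 0.44 to 1.31 CPM in Rorb h5/h5 libraries), with a median of 0.064.

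Of 15 clock genes, 3 were lower at an unadjusted p under 0.05, as were 2.05% of all genes tested, namely Dbp (-0.20), Npas2 (-0.22) and Hlf (-0.15). All mutants lay below all controls for 4 of the 15, against 4.89% of all genes. The median was -0.15, and no member passed edgeR or DESeq2. Dbp, an output gene of the clock, was at 61.2, 61.9 and 54.1 CPM in DBA/1J and at 50.6, 50.6 and 53.0 CPM in Rorb h5/h5 libraries, nearly touching. The core repressors Per2 at 61.8 ± 3.38 and 55.3 ± 11.1 CPM and Cry1 at 12.4 ± 1.45 and 12.03 ± 1.94 CPM (SD, n = 3 each) overlapped. The time of day of collection is not in the labels, so its part was not tested.

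Immediate early genes, which neurons induce on firing, had a median of -0.20 over 20 genes, with 3 lower at an unadjusted p under 0.05 (2.05% of all genes). Nptx2, a synaptic pentraxin, was at 16.9, 13.4 and 13.3 CPM in DBA/1J and from 10.9 to 11.9 CPM in Rorb h5/h5 libraries. Nr4a2 (-0.33) and Nr4a3 (-0.12) were the others, while Arc at 166.6 ± 52.9 and 118.1 ± 41.7 CPM and Egr1 at 187.9 ± 44.9 and 141.1 ± 37.2 CPM (SD, n = 3 each) overlapped widely.

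Stress responses were followed by 4 lists, with counts at an unadjusted p under 0.05, where 2.16% of all genes were higher and 2.05% lower. ER chaperones had a median of -0.035 over 28 genes with 1 lower (Fkbp2, -0.20), and the PERK and ATF4 branch -0.039 over 17 with 1 higher (Shmt2, 0.23) and 1 lower (Nupr1, -0.81). Cytosolic heat shock genes had a median of -0.12 over 15, with Hspb1 (-0.80) and Hspa1b (-0.41) lower. Hspb1, a small heat shock protein, was at 4.19, 4.45 and 4.58 CPM in DBA/1J and at 3.04, 1.61 and 2.92 CPM in Rorb h5/h5 libraries. Glucocorticoid-responsive genes had a median of -0.25 over 13, with Mt1 (-0.25) and Tsc22d3 (-0.38) lower at an unadjusted p under 0.05 and overlapping between genotypes. The retinoid and thyroid list had a median of -0.17 over 15 and 1 lower member, Dio2.

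Collagens had a median of 0.032 over 26 genes with 2 higher (Col15a1, 0.33, and Col25a1, 0.25). The other 58 matrix genes had a median of -0.018, with 2 higher (Tnc and Hapln1) and 7 lower at an unadjusted p under 0.05 (2.16% and 2.05% of all genes). Cholesterol synthesis genes had a median of 0.063 over 16 with 1 higher (Nsdhl, 0.19), and interferon genes 0.038 over 17 with none. The 13 mitochondrially encoded genes had log2 fold changes from -0.43 to -0.024 (median -0.0955), with 4 lower at an unadjusted p under 0.05 (2.05% of all genes). Among these mt-Atp8 was at 531.0, 467.2 and 531.2 CPM in DBA/1J and at 323.0, 427.6 and 383.4 CPM in Rorb h5/h5 libraries (adjusted p = 0.00144 with DESeq2 and 0.758 with edgeR). On the TPM scale mt-Atp8 overlapped between genotypes, at 54880, 49130 and 44760 in DBA/1J and at 39590, 49220 and 46250 in Rorb h5/h5 libraries. The gene overlaps mt-Atp6 on the mitochondrial genome, so reads are divided between them and its level is uncertain.

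The cortex and cerebellum of the same 6 animals give the regional setting. These comparisons use the same animals, so they are not independent of the hippocampus and values are given side by side. In cortex edgeR called 0 of 17220 genes (1106 at an unadjusted p under 0.05, 6.42%), and in cerebellum 2 of 16669 (0.012%, 937 at an unadjusted p under 0.05, 5.62%). A test of the difference of genotype effects between hippocampus and cortex, within animals, called 0 of 17866 genes with edgeR (601 at an unadjusted p under 0.05, 3.36%) and 2 with DESeq2. Between hippocampus and cerebellum it called Grin2c, 1 of 17832 (0.00561%, 758 at an unadjusted p under 0.05, 4.25%), with edgeR and 11 with DESeq2.

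Grin2c was 1.90-fold lower in hippocampus and had a log2 fold change of -0.95 (SE 0.10) in cortex, but 0.13 (SE 0.08) in cerebellum. In cerebellum it was at 273.6, 275.0 and 233.1 CPM in DBA/1J and at 288.7, 306.5 and 261.8 CPM in Rorb h5/h5 libraries, with overlapping groups. The effect in hippocampus differed from that in cerebellum by -1.07 on the log2 scale (SE 0.10, adjusted p = 0.0352 with edgeR), and the call was lost without any 1 animal other than Rorb h5/h5 replicate 2. Dio2 (-0.81 in hippocampus, -1.02 in cortex and -1.7e-05 in cerebellum) and Apln (-1.47, -1.49 and -0.24) followed by p, at an adjusted p of 0.108 and 0.194 with edgeR for the difference from cerebellum. Neither passed.

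For Myoc the log2 fold changes were 1.87 in hippocampus, 1.66 (SE 0.32) in cortex and 1.03 (SE 0.34) in cerebellum, and for Fabp7 1.33, 0.87 and 0.78. Rorb stood at 0.47, 0.72 and 0.56 and Gfap at 0.33, 0.75 and 0.34. The differences of these 4 from cortex and from cerebellum did not pass adjustment. Acta2 (-1.25, 0.0046 and -0.12), Myh11 (-0.96, 0.0068 and -0.13) and Tagln (-1.24, 0.17 and -0.22) stood well below 0 in hippocampus alone, yet the difference from cortex had an unadjusted p of 0.0122, 0.0205 and 0.00329 and an adjusted p of 1 in the edgeR fit, so a regional difference of the smooth muscle genes was not shown. Heph had log2 fold changes of -1.10, -1.54 and -1.12.

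**Figure D5:**
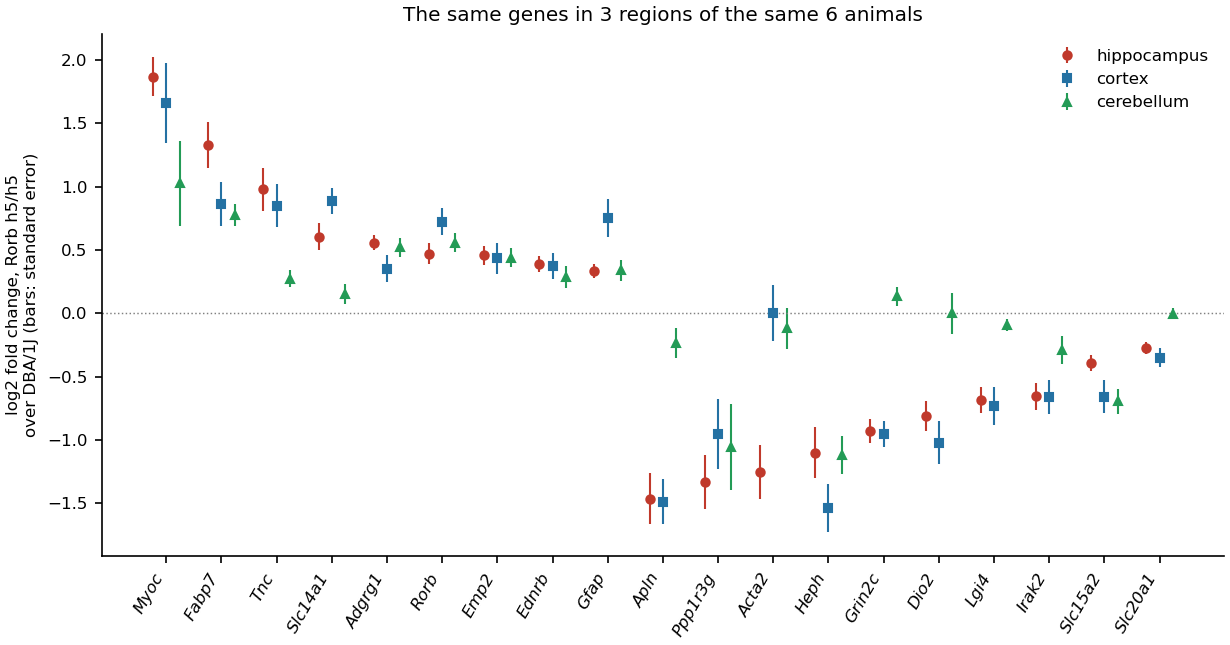
Log2 fold change of Rorb h5/h5 over DBA/1J (y axis, bars are standard errors) for the 19 genes with the smallest p in hippocampus, in hippocampus (circles), cortex (squares) and cerebellum (triangles) of the same 6 animals. Grin2c lies at -0.93, -0.95 and 0.13 in the 3 regions, and Acta2 at -1.25, 0.0046 and -0.12.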

How the data were processed

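RNA from 3 brain regions of 3 mutant and 3 control mice was analysed, 18 of the 66 libraries. The authors trimmed the reads with Trim Galore, aligned them with STAR to GRCm38 and estimated gene levels with RSEM, and the annotation version is not given in the sources used here. The deposited expected counts are RSEM estimates per gene that divide shared reads among genes, and 4.81% to 5.57% were not whole, so they were rounded before testing. The deposited TPM values were normalised for length and depth by the authors and served for levels and the tissue check. Symbols from GENCODE vM39 matched 41407 of 45706 identifiers, and 31363 have a GRCm38 position. Identifiers without a symbol took 2.13% to 5.52% of hippocampus counts.

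The quasi-likelihood test of edgeR 4.0.16 under R 4.3.3 was run after filterByExpr and TMM scaling, at a Benjamini-Hochberg adjusted p of 0.05. Differences between regions were tested as an interaction with the animal as a block. Named genes are Rorb, edgeR calls, the 20 genes of smallest p, up to 15 further DESeq2 calls of smallest adjusted p, list members at an unadjusted p under 0.05 (up to 4 per list, otherwise the 2 most abundant), tissue and sex markers, genes within 0.5 Mb of Rorb and the top 3 of each interaction. Other list members in the text were chosen after their values were seen, to show the genes of best known function. The members, the 42 gene lists and the tests were chosen with earlier results of these data known. The list of 5 sex genes holds Xist and Y-linked genes and had a median log2 fold change of 0.88.

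Alternatives were DESeq2 1.42.0, limma-voom with quality weights (limma 3.58.1), other size factors, no filter or at least 1 CPM in 3 libraries, labelled sex, the replicate number or the series of animal identifiers as a covariate, 1 fit of 3 regions, no X and Y genes, leaving out each replicate and, added after seeing the data, labelled sex without Rorb h5/h5 replicate 3. Scripts were tested on simulated counts. Some genes that these rules name are not reported here. Principal components used 500 genes as log2 CPM with a prior count of 2.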

Additional observations from a re-analysis of the deposited data

Results flagged for a closer look

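The genotype effect on Grin2c differed between 2 regions of the same animals. The log2 fold change was -0.93 in hippocampus and 0.13 in cerebellum, and the interaction was -1.07 (adjusted p = 0.0352 with edgeR, 3 animals per genotype). Hippocampal levels were 28.8 to 32.7 CPM in DBA/1J and 14.5 to 17.7 CPM in Rorb h5/h5 mice, while cerebellar levels were 233.1 to 275.0 CPM and 261.8 to 306.5 CPM. Leaving out any 1 animal other than Rorb h5/h5 replicate 2 lost the call. Beyond leaving out each animal, no check of single outlying libraries was made for this difference, as the groups hold only 3 libraries.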

How the results depend on the processing

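The count of called genes depended on the test. In place of 2 genes, DESeq2 called 44, no low-count filter gave 16, a filter of 1 CPM in 3 libraries 1, the identifier series as a block 7 (with Myoc, Fabp7, Acta2 and Myh11 and without Grin2c), 1 fit of 3 regions 7 and limma-voom 4. DESeq2 size factors, upper-quartile factors, labelled sex and no X and Y genes each gave 2. Leaving out 1 library gave 0 to 6 calls, with 6 without Rorb h5/h5 replicate 2, 3 without DBA/1J replicate 1 and 0 without each of the others (540 to 853 at an unadjusted p under 0.05). With labelled sex as a covariate and without Rorb h5/h5 replicate 3, an alternative chosen after seeing the data, edgeR called 0 genes (652 at an unadjusted p under 0.05). The cause of these shifts was not tested.

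With the replicate number as a block edgeR called 0 genes (829 at an unadjusted p under 0.05), and Myoc and Grin2c stood at an adjusted p of 0.0771. Deviations of same-numbered libraries correlated across genes at -0.028, 0.09 and 0.126, and the labels name no shared litter or day, so the numbers were not taken as pairs. The difference from cortex gave 2 calls with DESeq2 and 0 to 2 when an animal was left out, 2 of them without Rorb h5/h5 replicate 2. The difference from cerebellum gave 11 with DESeq2, 11 with no filter and 0 to 1 when an animal was left out.

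Rorb was called by DESeq2 alone (log2 0.47), and its log2 fold change was 0.40 to 0.53 without 1 library. Of the 36 values of Myoc and Grin2c under alternatives 15 lost the call, 6 of 18 for Myoc and 9 of 18 for Grin2c. The 113 other named genes were not called and gained a call in 62 of their values. Of 755 medians of 42 lists 27 moved by more than the spread between replicates, among them pericytes and smooth muscle, at -0.062 without DBA/1J replicate 1 and -0.34 without Rorb h5/h5 replicate 3. Total counts differed by up to 1.43-fold between libraries, with Rorb h5/h5 replicate 3 the deepest, and the effect of depth was not tested.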
